A study of Homo sapiens with 8 samples.

Results

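The genes described here are 9 stress-response genes of the p53, p21 and GADD45 type: MDM2, CDKN1A, GADD45A, GADD45B, AEN, BBC3, PMAIP1, FAS and TP53I3. They are 9 of the 17056 genes in the deposited table. They were picked by name with results of these same libraries in view, so their levels and differences are given as a description, without p-values. All 9 were found, and all 9 passed the filter on low values, a mean of at least 1 FPKM over the 8 libraries, as did 10648 genes in all. FPKM is the fragment count of a gene per kilobase of transcript and per size of its library, so it allows levels to be compared between genes. The RNA came from A549, an established human lung adenocarcinoma line. Each of 4 groups held 2 libraries: a vector control (vector), cells overexpressing the long non-coding RNA AFAP1-AS1 (OE), a negative control for the knockdown (ASONC, here the knockdown control) and AFAP1-AS1 knockdown (ASO). The labels give no agent, dose or time beyond these names, and no other allele or treatment. Nothing says that the libraries of a group came from separate cultures.

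p53 is a transcription factor that is held low by MDM2, a ubiquitin ligase whose own gene p53 activates, so the pair forms a feedback loop. When DNA damage or another stress releases p53, it induces CDKN1A, which encodes the CDK inhibitor p21, and genes that promote cell death. The GADD45 proteins are small stress sensors that bind p21, CDK1 and the kinase MAP3K4, and their genes also answer to stress pathways that do not need p53.

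Promoter sequence is shown for the genes where the letters of a p53 site or of core promoter elements lie in the window searched. RefSeq promoter windows (GRCh38.p14), the 250 bases before a start site, were available for 8 of the 9 genes, as 13 windows. GADD45A had no entry. The second MDM2 promoter, inside the gene, is the one that p53 is known to use. Below are 100 bases of it at chr12:68808887-68808986 (plus strand), followed by 100 bases upstream of GADD45B at chr19:2476022-2476121 (plus strand). Capitals mark the motifs searched: in MDM2 the AP-1 motif TGACTCA and 2 p53-like sites of 20 bases, in GADD45B CCAAT and TATAAA.
MDM2: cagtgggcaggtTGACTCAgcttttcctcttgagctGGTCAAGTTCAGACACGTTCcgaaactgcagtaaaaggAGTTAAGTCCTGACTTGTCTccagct
GADD45B: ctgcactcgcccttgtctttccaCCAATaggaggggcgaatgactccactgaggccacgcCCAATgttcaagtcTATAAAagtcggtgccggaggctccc

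A p53-like site was taken as 20 bases that match the p53 consensus on either strand with at most 3 mismatches and no spacer, a rule set after the windows had been seen. Such a site was in the windows of 4 of the 8 genes (AEN, FAS, MDM2 and PMAIP1). It was in 4.36% of all 35116 windows, several of which can belong to 1 gene. MDM2 and FAS had more than 1 window each, so the share of genes and the share of windows are not alike. Sequence outside the windows was not searched, so the other genes may hold p53 sites elsewhere. The 5 sites are at chr12:68808923-68808942 and chr12:68808961-68808980 (MDM2), chr10:88991309-88991328 (FAS), chr15:88621306-88621325 (AEN) and chr18:59899811-59899830 (PMAIP1), all written on the plus strand. They are printed to show how far each departs from the consensus: capitals mark bases that match it and small letters the mismatches.
MDM2 upstream site: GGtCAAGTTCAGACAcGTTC
MDM2 downstream site: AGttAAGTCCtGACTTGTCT
FAS site: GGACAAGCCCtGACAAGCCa
AEN site: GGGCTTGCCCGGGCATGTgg
PMAIP1 site: GAGCgTGTCCGGGCAgGTCg

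The upstream MDM2 site, the FAS site and the AEN site have 2 mismatches, and the downstream MDM2 site and the PMAIP1 site have 3. Among the other motifs searched on both strands, CCAAT was in windows of AEN, BBC3, GADD45B and MDM2 and in 32% of all windows. GGGCGG was in windows of AEN, CDKN1A, FAS, MDM2 and PMAIP1, against 42.6% of all windows. TGACTCA, which is also TGAGTCA on the other strand, was in windows of BBC3 and MDM2, against 4.2% of all, and TATAAA was in that of GADD45B alone, against 10.7% of all. The letters TGACGTCA and TTGCATCA, and the NF-kB motif, were in none of the 13 windows. A match describes the letters only, and the series holds no measurement of protein binding.

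Whole reads could be recovered from the FPKM values of all 17056 genes, and summed to between 33662221 and 37508996 per library. The 9 genes had between 619 reads (BBC3) and 16704 reads (CDKN1A) in a library, a counting error of 4.02% and 0.774%. The knockdown control stood apart at similar depth, with 1435 and 1341 genes listed at 0 against 2205 to 2327 in the other 6 libraries. The FPKM values of a library summed to between 371927 and 379733 in the vector control and overexpression groups. In the knockdown control and knockdown groups the sums were higher, between 421591 and 437924. All 11 A549 and epithelial markers were in the table, and 9 or 10 of them were above 1 FPKM in each group, with sums of 7720 to 8270 FPKM. Of the leukocyte markers, 4 of 5 were in the table, and their sum was 50.4 to 52.1 FPKM in the vector control, 91.1 to 92.0 in the knockdown control and 66.5 to 67.9 in the knockdown, almost all of it CD68, a lysosomal gene. Fibroblast markers summed to 0.572 to 2.82 FPKM and endothelial markers to 0.128 to 1.79 FPKM. The part of these differences in the results below was not tested. AFAP1-AS1 is not analysed here, so the labels were not checked against the targeted RNA. The labels give no batch or date, and whatever the ASONC and ASO libraries share apart from the vector and OE libraries cannot be told apart from their groups.

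MDM2, the ubiquitin ligase that restrains p53, had its highest levels in the vector control and overexpression libraries. Against the vector control it was lower in the knockdown control, where 7 of the other 8 genes were higher, and like those 7 it was lower in the knockdown than in its control. Its level was 40.1 and 38.5 FPKM in the vector control, 37.8 and 38.7 with overexpression, 21.9 and 22.2 in the knockdown control and 16.0 and 17.2 in the knockdown. The vector control and overexpression libraries overlapped, while the knockdown control lay below both and the knockdown lower still. Every log2 difference was taken between means of log2(FPKM + 1), so that of a low gene is understated, and all came from 1 limma fit to the 8 libraries. The log2 difference was -0.81 ± 0.05 (SE) between knockdown control and vector control and -0.39 ± 0.05 for the knockdown against the knockdown control. MDM4, a relative of MDM2 that also binds p53, fell in the knockdown control against the vector control by 0.45 on the log2 scale (limma adjusted p = 0.000594). The length and GC correction took each library's trend on exonic length and GC content out of the values before the fit. With it that difference was -0.03 (limma adjusted p = 0.732). MDM4 stood at 3.56 and 3.09 FPKM in the vector control, 2.27 and 2.04 in the knockdown control and 1.99 and 2.13 in the knockdown. Between knockdown and knockdown control its log2 difference was -0.04 ± 0.09 (limma adjusted p = 0.754).

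CDKN1A, the gene of p21, was high in the knockdown control. Its level was 89.6 and 86.7 FPKM in the vector control, 85.9 and 87.2 with overexpression, 154 and 167 in the knockdown control and 102 and 103 in the knockdown. The 2 knockdown libraries lay between the others without overlap, above the vector control and below the knockdown control. The knockdown control mean was 1.82 times that of the vector control (log2 difference 0.85 ± 0.04), and the knockdown was lower than its control by a log2 difference of -0.64 ± 0.04. Within each library, CDKN1A stood at 2.23 and 2.25 times the MDM2 level in the vector control, 7.01 and 7.53 times in the knockdown control and 6.36 and 5.98 times in the knockdown. In the knockdown this ratio of levels was far above that of the vector control, while the mean CDKN1A level was 1.16 times that of the vector control. With the length and GC correction, the log2 differences behind the ratio in that comparison were -0.06 for CDKN1A, no longer called, and -0.81 for MDM2. As deposited they were 0.21 and -1.20.

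GADD45A and GADD45B showed the widest ranges of the 9 genes, with PMAIP1 next to GADD45A: the highest group mean was 2.96, 3.81 and 2.86 times the lowest. GADD45A stood at 76.2 and 81.4 FPKM in the vector control, 78.4 and 77.6 with overexpression, 181 and 196 in the knockdown control and 62.1 and 65.2 in the knockdown. The knockdown control was high, and the knockdown lay below every other library. GADD45B stood at 43.9 and 45.9 FPKM in the vector control, 38.8 and 41.2 with overexpression, 150 and 155 in the knockdown control and 70.3 and 69.0 in the knockdown. Here the knockdown remained above the vector control, and no groups overlapped. For GADD45A the log2 difference was 1.25 ± 0.05 for the knockdown control against the vector control, -1.55 ± 0.05 for the knockdown against its control and -0.30 ± 0.05 for the knockdown against the vector control. For GADD45B the same 3 differences were 1.74 ± 0.04, -1.12 ± 0.04 and 0.62 ± 0.04. With the length and GC correction, the knockdown differed from the vector control by -0.64 for GADD45A and 0.26 for GADD45B. GADD45A was above GADD45B in every vector control library, at 1.74 and 1.78 times its level, and below it in the knockdown, at 0.88 and 0.94 times. The third family member, GADD45G, was barely detected, with 60 and 40 recovered reads in the knockdown control, 11 and 0 in the knockdown and at most 1 in each of the other 4 libraries.

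**Figure D1:**
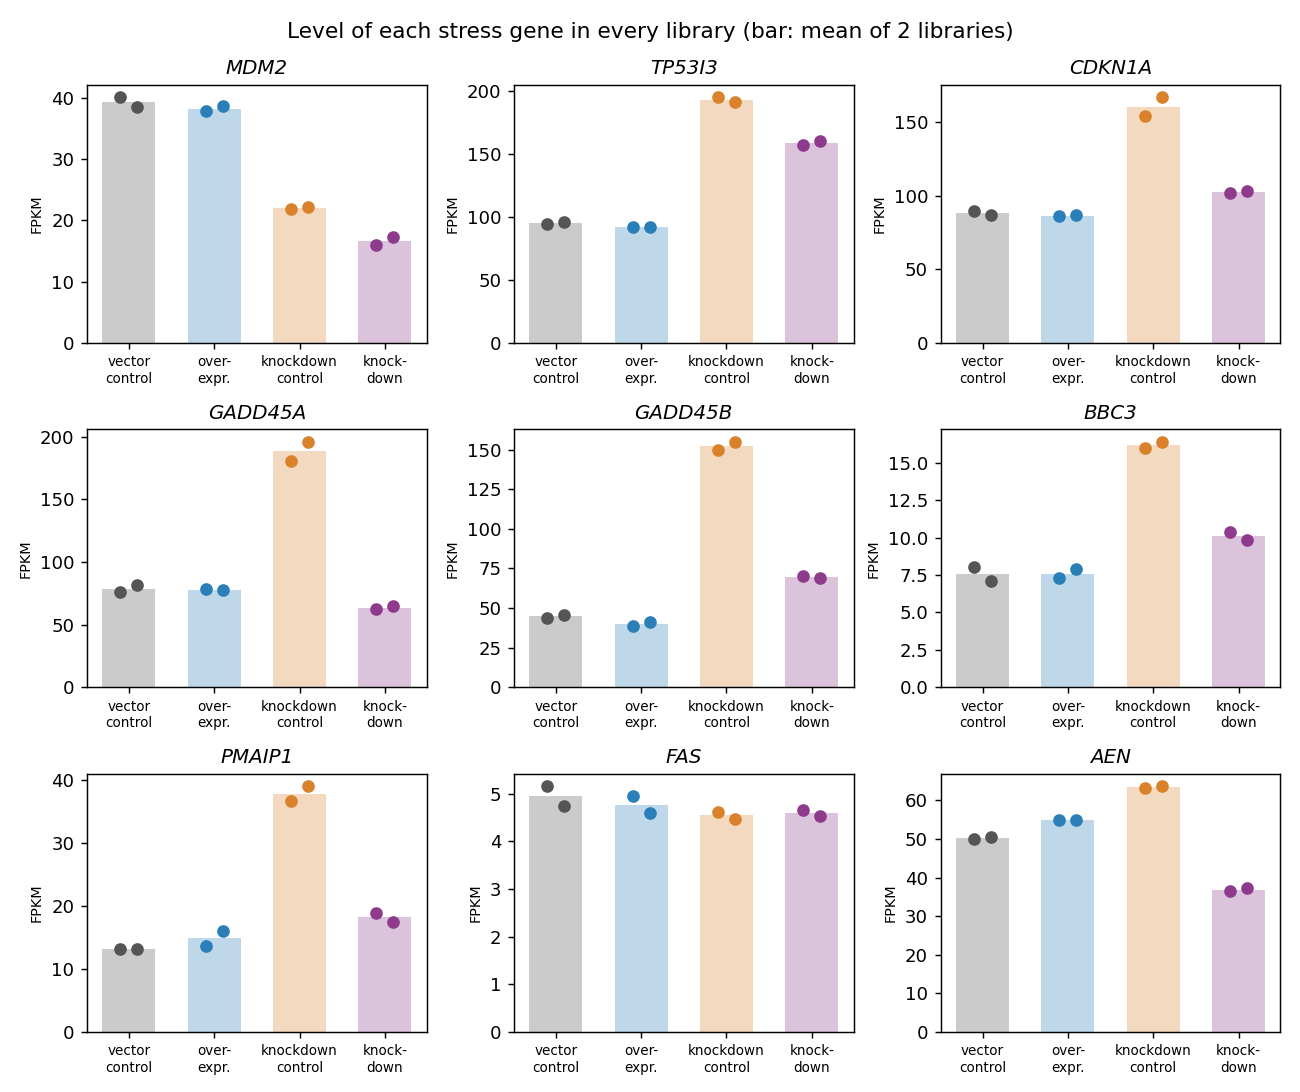
FPKM (y axis, from 0) of each of the 9 genes by group (x axis); points are libraries and bars the mean of 2 libraries. In 7 of the 9 panels the knockdown control is the highest group, the MDM2 group mean is 39.3 FPKM in the vector control and 16.6 in the knockdown, and FAS lies between 4.47 and 5.16 FPKM in all 8 libraries.

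BBC3 and PMAIP1 encode PUMA and NOXA, BH3-only proteins that promote mitochondrial cell death. BBC3 was low throughout, at 8.0 and 7.07 FPKM in the vector control, 7.28 and 7.88 with overexpression, 16.0 and 16.4 in the knockdown control and 10.4 and 9.85 in the knockdown. PMAIP1 stood at 13.2 in both vector control libraries, 13.7 and 16.0 FPKM with overexpression, 36.6 and 39.0 in the knockdown control and 18.9 and 17.4 in the knockdown. Both genes had the same order, the knockdown control above the knockdown and the knockdown above the other 4 libraries. The knockdown control mean was 2.15 times that of the vector control for BBC3 (log2 difference 1.01 ± 0.07) and 2.86 times for PMAIP1 (1.45 ± 0.07). The knockdown was lower than its control by a log2 difference of -0.63 ± 0.07 and -1.02 ± 0.07.

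TP53I3, a quinone oxidoreductase gene also known as PIG3, was the member whose level stayed highest in the knockdown. It stood at 94.1 and 96.1 FPKM in the vector control, 92.2 and 92.0 with overexpression, 195 and 191 in the knockdown control and 157 and 160 in the knockdown. The log2 difference was 1.01 ± 0.04 for the knockdown control against the vector control, -0.28 ± 0.04 for the knockdown against its control and 0.73 ± 0.04 for the knockdown against the vector control. Its ratio to MDM2 was 2.34 and 2.50 in the vector control and 9.78 and 9.34 in the knockdown. With the length and GC correction, the log2 differences behind that change were 0.42 for TP53I3 and -0.81 for MDM2, against 0.73 and -1.20 as deposited.

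AEN encodes an exonuclease that p53 induces during apoptosis. It stood at 50.1 and 50.4 FPKM in the vector control, 55.0 and 54.9 with overexpression, 63.2 and 63.7 in the knockdown control and 36.5 and 37.2 in the knockdown. The 4 groups did not overlap, and the knockdown lay below the vector control, as it did for GADD45A and MDM2. The log2 difference was 0.33 ± 0.04 between knockdown control and vector control, -0.77 ± 0.04 between knockdown and its control and -0.44 ± 0.04 between knockdown and vector control. The first of these was 0.12 with TPM scaling and 0.20 with the length and GC correction, and was called in both.

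FAS, the death receptor of the FAS ligand, had the smallest spread of group means of the 9 genes in the values as deposited. Its level was 5.16 and 4.75 FPKM in the vector control, 4.95 and 4.59 with overexpression, 4.62 and 4.47 in the knockdown control and 4.65 and 4.54 in the knockdown. Neighbouring groups overlapped, although the knockdown control and knockdown libraries all lay below both vector control libraries, and the highest group mean was 1.09 times the lowest. The log2 difference was 0.01 ± 0.07 for the knockdown against its control and -0.10 ± 0.07 between knockdown control and vector control. TPM scaling took FAS past the threshold, at -0.32 for the knockdown control and -0.26 for the knockdown against the vector control, while the length and GC correction gave 0.06 and 0.00. FAS shares 380 exonic bases, 8.93% of its exonic length, with ACTA2 on the opposite strand (GENCODE release 29). No source used here says whether reads were counted by strand, so reads of these partners cannot be told apart. Smaller overlaps, of at most 5.91% of the gene's exonic length, exist for BBC3, CDKN1A, MDM2 and TP53I3, and the MDM2 overlaps include a processed pseudogene on the same strand.

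The first comparison sets the libraries labelled as AFAP1-AS1 knockdown against those of its negative control. Of the 9 genes, 8 passed the limma threshold of an adjusted p below 0.05 over all genes tested, all 8 lower in the knockdown and FAS the exception. The background was 22.2% of all genes tested, 11.3% higher and 10.9% lower. Since results of this comparison were known when the genes were picked, nothing is read from that count. The median log2 difference was -0.64 over the 9 genes and 0.02 over all genes tested. From largest to smallest, GADD45A was 2.96 times lower as a ratio of group means, GADD45B 2.19 times, PMAIP1 2.08 times, AEN 1.72 times, BBC3 1.60 times, CDKN1A 1.57 times, MDM2 1.33 times and TP53I3 1.22 times. In bulk RNA, a change in every cell and a change in the number of cells of a kind cannot be told apart.

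Overexpression against the vector control gave little difference. None of the 9 genes passed the threshold with limma, 2 had an unadjusted p below the same threshold, and none passed with voom on the recovered reads. The limma background was 0.0657% of all genes tested, 7 genes, all of them higher. The log2 differences were -0.16 ± 0.04 for GADD45B, 0.15 ± 0.07 for PMAIP1 and 0.13 ± 0.04 for AEN. That of PMAIP1 was 0.25 without overexpression replicate 1 and 0.04 without overexpression replicate 2. The remaining 6 genes lay between -0.05 and 0.01.

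The knockdown control against the vector control compares the 2 control groups with each other. Here 8 of the 9 genes passed the threshold, 7 higher (CDKN1A, GADD45A, GADD45B, AEN, BBC3, PMAIP1 and TP53I3) and MDM2 lower. The background was 68.6% of all genes tested, 36.8% higher and 31.8% lower, so most genes passed. The median log2 difference was 1.01 over the 9 genes and 0.04 over all genes tested. For the knockdown against the vector control, 8 of the 9 genes passed, 5 higher and 3 lower (MDM2, GADD45A and AEN), against a background of 62.9% of all genes tested, 34.1% higher and 28.8% lower. The medians were 0.21 over the 9 genes and 0.03 over all. The comparisons share control libraries and are not independent of each other, so the values stand side by side only.

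**Figure D2:**
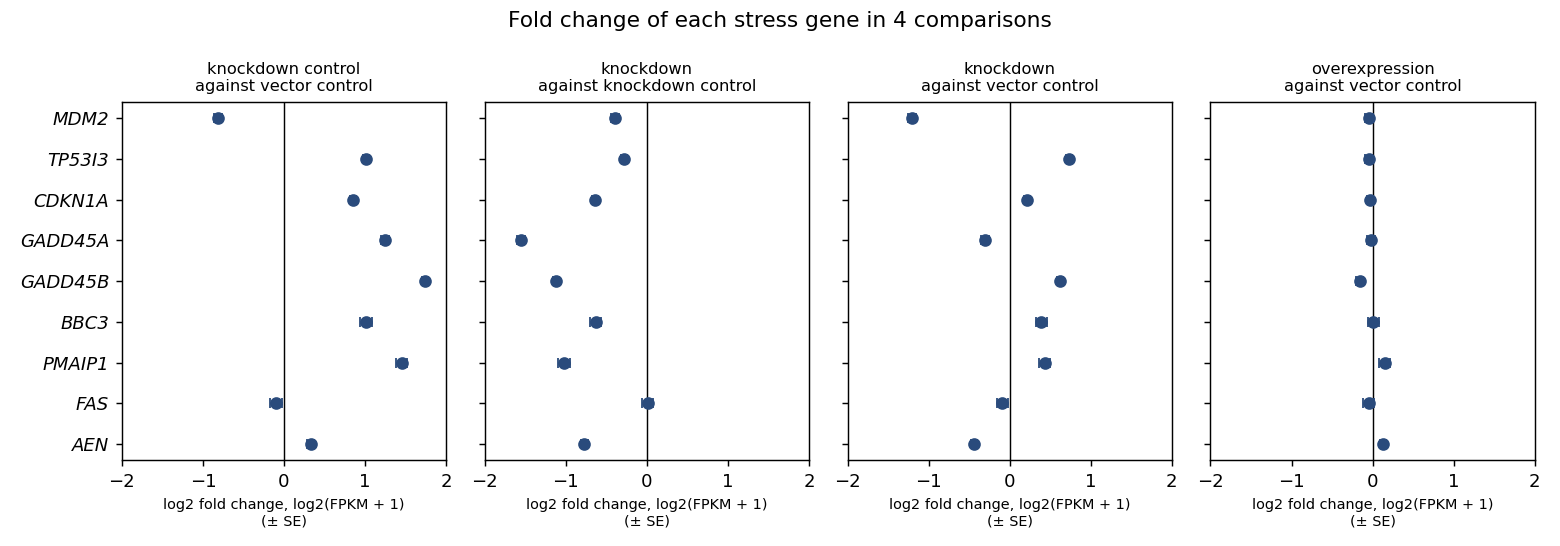
Log2 difference on the log2(FPKM + 1) scale (x axis) with its standard error for each of the 9 genes (y axis) in 4 comparisons with 2 libraries per group. CDKN1A, GADD45A, GADD45B, BBC3, PMAIP1, TP53I3 and AEN lie right of 0 between knockdown control and vector control and left of 0 for the knockdown against its control, MDM2 lies left in both, and overexpression values lie between -0.16 and 0.15.

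**Figure D3:**
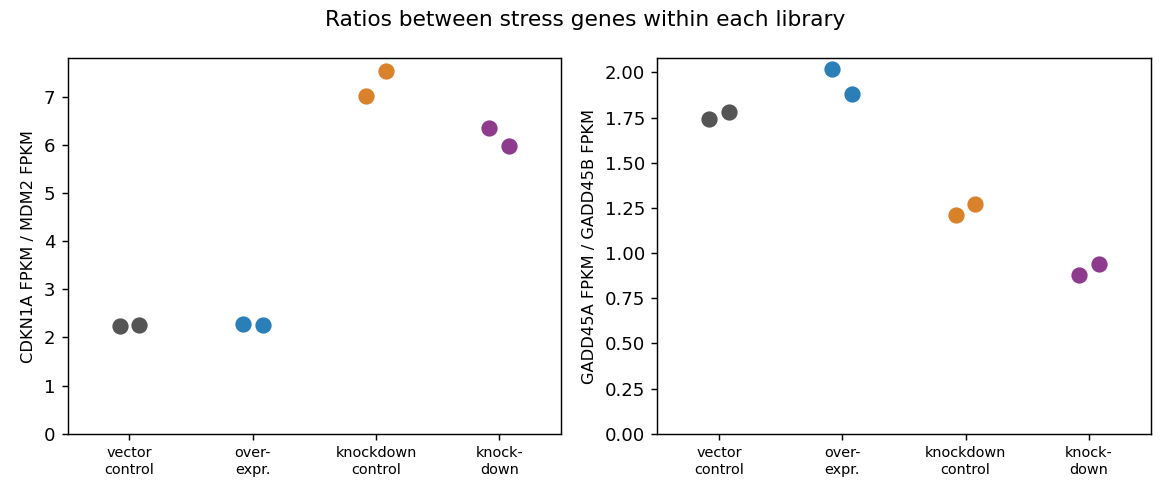
Ratio of FPKM levels within each library (y axes, from 0) for CDKN1A over MDM2 and for GADD45A over GADD45B, by group (x axis), 1 point per library. The first ratio is 2.23 to 2.27 in the vector control and overexpression libraries and 5.98 to 7.53 in the others, and the second runs from 2.02 in an overexpression library to 0.88 in a knockdown library.

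As an alternative, each library's trend on exonic length and GC content was taken out of the values before the same fit. The calls between the 2 control groups then went from 7309 to 6225. MDM2 is the longest of the 9 genes, with 13284 exonic bases, and at 41.4% has the lowest GC content, while BBC3 has the highest, 64.5%. With this correction, the difference between the 2 control groups shrank for MDM2 from -0.81 to -0.31 and for CDKN1A from 0.85 to 0.47. It shrank for TP53I3 from 1.01 to 0.58 and for BBC3 from 1.01 to 0.57. PMAIP1, at 43.6% GC, moved least, from 1.45 to 1.35, and GADD45B kept 1.23 of 1.74. For the knockdown against its control the corrected values were closer, in log2 units, to those as deposited. They were -1.42 for GADD45A, -0.98 for GADD45B, -1.03 for PMAIP1 and -0.53 for CDKN1A. TP53I3 went from -0.28 to -0.16, BBC3 from -0.63 to -0.49 and MDM2 from -0.39 to -0.51. For the knockdown against the vector control the correction ended the calls of CDKN1A, which went from 0.21 to -0.06, and of BBC3, which went from 0.39 to 0.07, and TPM scaling took CDKN1A to 0.04 and PMAIP1 from 0.43 to 0.27. The part of length and GC content in these differences was not tested further.

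**Figure D4:**
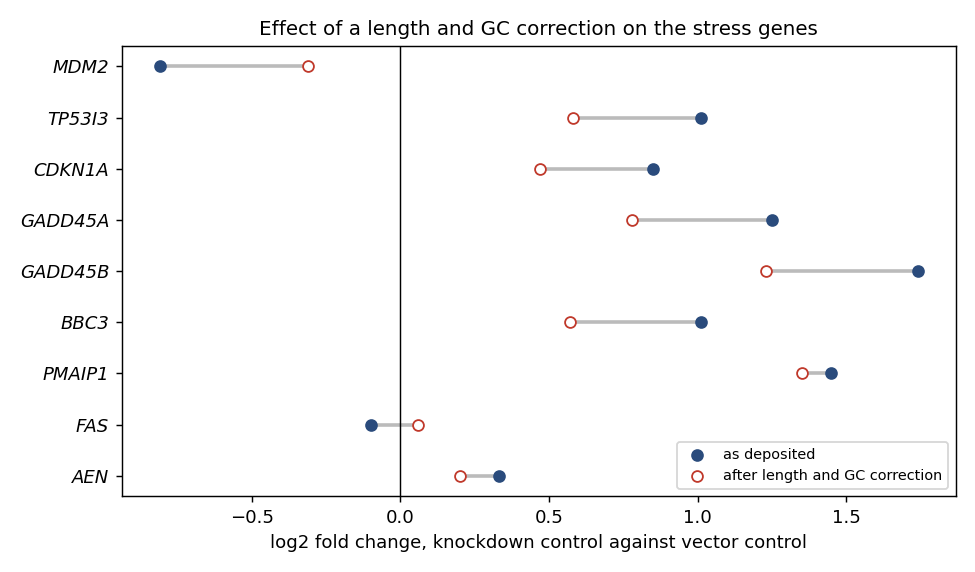
Log2 difference between knockdown control and vector control (x axis) for each of the 9 genes (y axis) as deposited (filled) and after the length and GC correction (open). PMAIP1 keeps 1.35 of 1.45 and GADD45B 1.23 of 1.74, MDM2 moves from -0.81 to -0.31, and FAS crosses 0 from -0.10 to 0.06.

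Other p53 target genes were taken from 3 lists, with 55 tested genes in all, that leave the 9 out. In the knockdown against its control 18 of the 55 fell and 3 rose (32.7% and 5.45%). Over all genes tested 10.9% fell and 11.3% rose. The median log2 difference was -0.07 for the 55 and 0.02 over all genes tested. In the knockdown control against the vector control 32 rose and 9 fell (58.2% and 16.4%), with a median of 0.25. The shares over all genes tested were 36.8% and 31.8%, with a median of 0.04. These shares are also the background of the list counts below. Some of the rises between the 2 control groups depended on the processing. With the length and GC correction PHLDA3 stood at 0.04, SCO2 at 0.05 and GDF15 at -0.09, and with TPM scaling PLK2 stood at 0.05. TPM scaling also moved the median of all genes there to -0.16. SERTAD1, PLK3, RRAD, BAX, GPX1, DDB2 and SLC12A4 kept their calls with both. For overexpression none of the 55 passed with limma or voom, 5 had an unadjusted p below the threshold, and the median was -0.01.

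Arrest and feedback targets stood lowest of the 3 lists in the knockdown: 9 of 16 fell and 1 rose against the knockdown control, with a median of -0.28. SERTAD1, a regulator of CDK4, fell by 1.55 ± 0.06 on the log2 scale (limma adjusted p = 1.72e-08), from 48.8 and 49.6 FPKM in the knockdown control to 15.6 and 16.8, with 9.95 and 9.51 in the vector control. PLK3, a stress-activated polo-like kinase, fell by 0.62 ± 0.07 (limma adjusted p = 7.88e-05), PHLDA3, an AKT inhibitor, by 0.53 ± 0.05 (1.38e-05) and the related kinase PLK2 by 0.52 ± 0.04 (7.81e-06). Against the vector control, 12 of the 16 rose and 2 fell in the knockdown control, with a median of 0.43. There PHLDA3 went from 0.46 to 0.04 with the length and GC correction, and PLK2 from 0.27 to 0.05 with TPM scaling. SERTAD1 and PLK3 kept their calls with both.

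Of 19 apoptosis targets, 5 fell, 1 rose and 13 did not pass in the knockdown against its control, with a median of -0.05. RRAD, a small GTPase gene, fell by 2.35 ± 0.10 on the log2 scale (limma adjusted p = 3.68e-08), from 9.78 and 8.50 FPKM to 1.0 and 0.975, close to the vector control at 0.989 and 0.720. BAX, the pore-forming death effector, fell by 0.27 ± 0.04 (limma adjusted p = 0.000654), from 178 and 177 FPKM to 147 and 148, and its vector control level was 104 and 109. GDF15, a secreted stress cytokine, fell by 0.26 (limma adjusted p = 0.0013), a call lost with the length and GC correction (-0.11, 0.063). Of the 19, 9 rose and 3 fell in the knockdown control against the vector control, where 36.8% of all genes tested rose and 31.8% fell. The median of the list was 0.11, a sign that TPM scaling turned (-0.10).

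Repair and metabolism targets numbered 20, of which 4 fell and 1 rose in the knockdown against its control. The 4 were SCO2, a copper chaperone for respiration (by 0.39 on the log2 scale), GPX1, a glutathione peroxidase (by 0.35), DDB2, a sensor of ultraviolet damage (by 0.28), and SLC12A4, an ion transporter (by 0.27), with limma adjusted p of 0.00349, 0.000497, 0.000774 and 0.00593. SCO2 lost its call with the length and GC correction (-0.15, limma adjusted p = 0.186). The median of the list was -0.03, and TPM scaling gave 0.01. Against the vector control, 11 rose and 4 fell in the knockdown control, with a median of 0.23, and GPX1 rose by 1.26. With the length and GC correction SCO2 went there from 0.80 to 0.05 and lost its call, while GPX1, DDB2 and SLC12A4 kept theirs.

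Genes listed as repressed through p53, p21 and the DREAM complex moved the other way in the knockdown against its control. As background, p21 keeps RB-family proteins active, and through the DREAM complex these repress genes of mitosis. Neither p21 activity nor DREAM binding was measured, and a link between the levels of these genes and that of CDKN1A was not tested. Of the 22 listed genes, 16 rose and 0 fell in the knockdown against its control, where 11.3% of all genes tested rose and 10.9% fell. All 22 had a difference above 0, with a median of 0.23. HMMR, a mitotic spindle protein, rose by 0.51 ± 0.07 (limma adjusted p = 0.000405), the spindle factors NUSAP1 and PRC1 by 0.38 each (9.35e-05 and 0.000439) and cyclin B1, CCNB1, by 0.29 ± 0.03 (0.000167). HMMR stood at 25.3 and 26.8 FPKM in the vector control, 14.5 and 13.4 in the knockdown control and 21.9 and 18.8 in the knockdown. CCNB1 stood at 133 and 137, 148 and 148, and 179 and 183 FPKM in the same groups, so it was highest in the knockdown; its rise from vector to knockdown control was not called with median-of-ratios scaling (0.07) and turned to -0.09 with TPM scaling. From vector control to knockdown control 12 of the 22 fell and 4 rose, with a median of -0.18. With the length and GC correction CDK1, also of this list, turned there from -0.15 to 0.17 (limma adjusted p = 0.0244), and CCNB1 stood at 0.02. In the knockdown against its control CDK1 went from 0.33 to 0.18 with it and lost its call. HMMR, NUSAP1 and PRC1 kept their calls with it in both comparisons. For the knockdown against the vector control 9 rose and 7 fell, where 34.1% of all genes tested rose and 28.8% fell. The median of the list was 0.01, which median-of-ratios scaling, TPM scaling and the length and GC correction turned to -0.03, -0.17 and -0.09.

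Among 17 cyclins, CDKs, CDK inhibitors and RB-family genes, 7 rose and 0 fell in the knockdown against its control, with a median of 0.19. Over all genes tested 11.3% rose and 10.9% fell. CCNA2, cyclin A, rose by 0.38 ± 0.06 (limma adjusted p = 0.000774), RBL1, an RB-family pocket protein, by 0.36 (0.00463), RB1 by 0.29 (0.00777) and CCND3, a D-type cyclin, by 0.20 (0.00318). RB1 lost its call without knockdown replicate 2 (0.26, limma adjusted p = 0.0606) and with the length and GC correction (0.16, 0.0962). Without knockdown control replicate 1 or knockdown replicate 1 the count was 4 of 17, and without knockdown replicate 2 it was 3. GADD45 partners had 5 of 15 higher and 2 lower, with a median of 0.11. This list shares CCNB1 and CDK1 with the DREAM genes and PCNA with the cyclins and CDKs, so some calls are counted again. MAP2K3, an activator of p38 kinases, fell by 0.68 ± 0.05 (limma adjusted p = 3.67e-06), from 44.4 and 46.8 to 26.9 and 29.4 FPKM, while CDK1, the mitotic kinase that GADD45 proteins bind, rose by 0.33 (0.00214). With the length and GC correction CDK1 lost its call (0.18, limma adjusted p = 0.0538), and 2 of the 15 were higher and 1 was lower, as without knockdown control replicate 2 or knockdown replicate 2. Without knockdown control replicate 1 the counts were 3 and 1.

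The regulators of p53 gave 4 higher and 2 lower of 21 in the knockdown against its control, with a median of 0.07, and few of these calls were stable. Between 1 and 3 of the 21 passed without any 1 of the 4 knockdown and knockdown control libraries, and 1 with the length and GC correction. PPP1R13L, an inhibitor of p53, fell by 0.44 (limma adjusted p = 0.00762), but not without knockdown control replicate 2 (-0.32, 0.0825). ATM, the kinase that signals DNA breaks to p53, differed by 0.33 ± 0.10 (limma adjusted p = 0.0305), and did not pass without knockdown control replicate 2 (0.25, 0.188), knockdown replicate 1 (0.25, 0.172) or knockdown replicate 2 (0.40, 0.051). In the knockdown control against the vector control 14 of the 21 fell and 3 rose, with a median of -0.37, which that correction brought to -0.14. ATM stood at 3.48 and 3.51 FPKM in the vector control and 1.42 and 1.17 in the knockdown control.

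Over all genes tested, 10.9% fell and 11.3% rose in the knockdown against its control. Of 11 BCL2-family partners of PUMA and NOXA, 5 fell and 0 rose there, with a median of -0.23. Without knockdown control replicate 2 or knockdown replicate 1 the count was 3. In the knockdown control against the vector control 9 rose and 1 fell, with a median of 0.67. With the length and GC correction BAD went there from 0.67 to 0.04 and BCL2L1 from 0.30 to -0.01, and both lost their calls. BAX and BCL2A1 kept theirs. The members that moved are of both kinds. BAX, which also fell, is counted among the apoptosis targets as well. BCL2A1, which protects from cell death, fell by 1.20 ± 0.09 in the knockdown (limma adjusted p = 4.04e-06), BCL2L1, also protective, by 0.23 (0.00171) and BAD, which promotes death, by 0.23 (0.0154). BAD lost its call without knockdown control replicate 2 (-0.18, limma adjusted p = 0.12) or knockdown replicate 1 (-0.17, 0.122) and with the length and GC correction (-0.04, 0.685). Of the genes downstream of FAS, 0 of 11 passed with limma or voom in the knockdown against its control and 1 had an unadjusted p below the threshold. FADD, its adaptor, differed by -0.11 (limma adjusted p = 0.154). In the knockdown control against the vector control FADD rose by 0.54 (limma adjusted p = 1.96e-06), which the length and GC correction brought to 0.01 (0.849). In that comparison 5 of the 11 rose and 2 fell, where 36.8% of all genes tested rose and 31.8% fell.

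For overexpression, 0 genes of any of the 9 lists passed with limma or voom, and between 0 and 5 per list had an unadjusted p below the threshold.

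**Figure D5:**
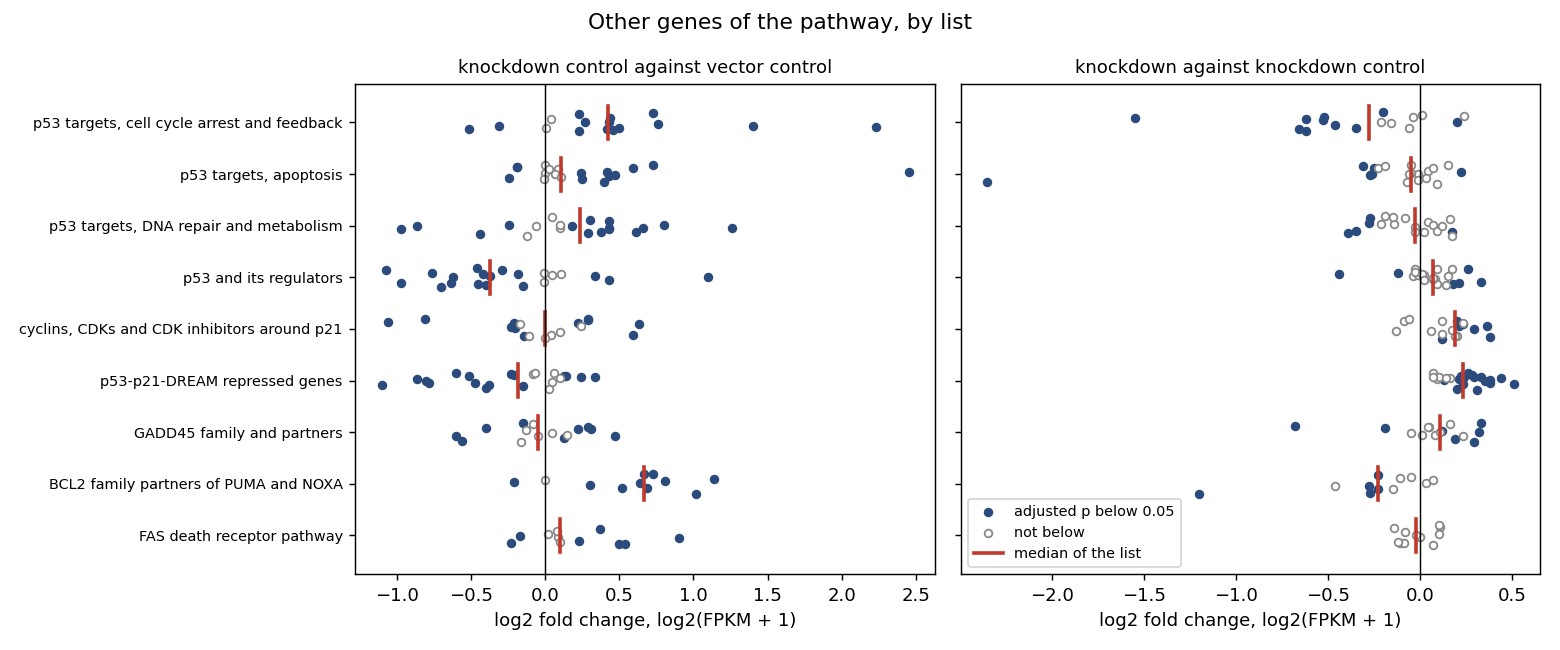
Log2 difference on the log2(FPKM + 1) scale (x axes) of each tested gene of the 9 lists (y axis), filled where the limma adjusted p is below 0.05, with the list median as a red bar. In the knockdown against its control (right) all 22 DREAM genes lie right of 0 with a median of 0.23 and the arrest and feedback targets have a median of -0.28, and in the knockdown control against the vector control (left) these medians are -0.18 and 0.43.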

How the data were processed

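The authors deposited FPKM values in 1 table with 8 library columns, named in the labels. HISAT2, featureCounts, HTSeq, R 3.2.0 and build hg38 (GRCh38) appear without roles in the submitters' processing notes. The 9 genes and 9 gene lists were chosen with earlier results of these data known, so no gene or list is independent evidence. How measured values entered the choice of the 9 is not recorded, and every comparison was treated as used. limma 3.58.1 (R 4.3.3; lmFit, contrasts.fit, eBayes with trend, two-sided) was fitted to log2(FPKM + 1) of all 4 groups for 10648 genes (mean FPKM of 1 or more), with 4 residual degrees of freedom and Benjamini-Hochberg adjustment. P-values set each difference against the spread between libraries of a group, shared over the 4 groups and moderated over genes. That spread may be technical only, so variation between cultures may not be covered. An exact permutation test cannot pass the threshold with 2 libraries per group. Reads were recovered from the steps of the FPKM values (tolerance 0.02 reads), which on simulated data returned exact reads for 99.6% of 2000 genes, and went into voom (limma, library sizes scaled by median-of-ratios factors), used for voom counts only. Counting errors cover counting only. Named list genes were the up to 4 per list with the smallest limma p in knockdown against knockdown control, those called in overexpression, and MDM4; some genes the rule names are not reported here. Exonic length and GC content came from GENCODE release 29. For the correction, the deviations of genes from their means were fitted in each library on splines of both, with 5 degrees of freedom each. The fitted part was subtracted before limma. Promoters are from RefSeq. The 18 alternatives covered pseudocount, filter, scaling, correction, block and left-out libraries.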

Additional observations from a re-analysis of the deposited data

How the results depend on the processing

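Called genes among the 9 kept their sign and call in 144 of 144 values over 18 alternatives for the knockdown against its control, and likewise in 144 of 144 for the knockdown control against the vector control. For the knockdown against the vector control 142 of 144 kept their sign and 139 their call. CDKN1A lost its call with TPM scaling (0.04, limma adjusted p = 0.459) and turned to -0.06 with the length and GC correction, alone (limma adjusted p = 0.207) and with the replicate block (0.212), where BBC3 also lost its call (0.07, limma adjusted p = 0.357 and 0.375). The cause was not tested. The filters, the replicate block, the fit of the compared libraries only and left-out libraries of other groups cannot change a log2 difference. Their signs were therefore fixed in advance, and only their calls could move. The 9 genes were also picked with these results known, so the counts of kept signs and calls are no support.

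Genes called for overexpression numbered 7 in the fit as described, 0 with no filter, 11 with a minimum mean of 5 FPKM, 27 with voom and 6 to 12 with 1 library left out, 12 without vector control replicate 2. For the knockdown against its control the 2369 calls became 1176 to 2315 with 1 library left out: 1494 and 1176 without knockdown replicate 1 and 2, and 1323 without knockdown control replicate 2. Each such fit leaves a lone library, assumed to vary like the other groups. The share of calls that were higher in this comparison was 50.8%, against 66.8% with TPM scaling, 62.1% with median-of-ratios scaling and 39.3% with no filter. TPM scaling moved the median of all genes to -0.16 for the knockdown control and -0.13 for the knockdown against the vector control, with 31.7% and 31.9% of calls higher, against 53.6% and 54.2%.

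Replicate numbers did not pair the libraries: same-numbered deviations correlated between -0.061 and 0.062. With the replicate block 2315, 8, 7320 and 6707 genes were called for the knockdown against its control, overexpression, the knockdown control and the knockdown against the vector control, against 2369, 7, 7309 and 6700 without it, and 8, 0, 8 and 8 of the 9 genes.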

Other observations

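The genes whose levels followed each of the 9 most closely over the 8 libraries differed from gene to gene. These are descriptions over 8 libraries of 4 groups that all genes share, by Pearson r of log2(FPKM + 1) among 10647 other tested genes. GADD45A was most like CITED2 (0.997) and ATF3 (0.996), a stress-induced transcription factor at 28.5 and 32.1 FPKM in the vector control, 87.4 and 85.5 in the knockdown control and 24.2 and 24.5 in the knockdown. AEN was most like 3 interferon-induced genes, ISG15 (0.999), RSAD2 (0.998) and PLSCR1 (0.996). ISG15 stood at 35.8 and 34.9 FPKM in the vector control, 51.0 and 48.3 with overexpression, 77.6 and 77.5 in the knockdown control and 12.5 and 12 in the knockdown, the same order of groups as AEN.

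The number of tested genes at an r of at least 0.95 was 29 for AEN, 72 for GADD45A, 188 for PMAIP1, 206 for CDKN1A, 315 for BBC3, 337 for GADD45B, 343 for MDM2 and 1247 for TP53I3. FAS had 2, NPAS2 (0.959) and ZSCAN25 (0.951). Of the 9, CDKN1A had an r of 0.99 with GADD45B, PMAIP1 and BBC3 and of 0.45 with AEN, and MDM2 had an r of -0.88 with TP53I3.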
